A study of Mus musculus with 8 samples.

Results

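Small RNA fragments of 5.8S rRNA and 5S rRNA were measured in mouse sperm after activation of hypothalamic AgRP neurons. A fragment was taken when the only rRNA in its annotation was 5.8S-rRNA or 5S-rRNA and no tRNA or miRNA was named with it. This gave 5366 distinct fragments of the 5724730 distinct sequences in the 8 libraries. Of these, 2789 came from 5.8S rRNA, with 471917 reads (0.408% of all reads), and 2577 from 5S rRNA, with 471776 reads (0.408%).

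In the mouse, 5.8S, 18S and 28S rRNA are cut from a single precursor transcribed by RNA polymerase I, the 45S RNA, whose genes stand in repeated arrays that genome assemblies largely leave out. 5S rRNA is made from separate genes by RNA polymerase III. Both small RNAs sit in the large ribosomal subunit, where 5.8S rRNA is paired with 28S rRNA. Mature sperm translate little, and rRNA fragments are among the most abundant small RNAs they carry.

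Activated mice were Agrp Cre/+ and control mice Agrp +/+, with 4 males in each group and 1 library per mouse. All 8 had received, at 8 weeks of age, injections of the same AAV on both sides of the hypothalamic arcuate nucleus (ARH), namely hSYN-DIO-hM3D(Gq)-mCherry, in which a neuronal promoter drives an excitatory designer receptor (DREADD) only in cells that express Cre. Both groups were given the receptor's ligand clozapine-N-oxide (CNO) at 1 mg/kg, 1 h after food was taken away, and sperm was collected from the caudae epididymides 4 h later. The genotype is thus the only labelled difference between the groups, and no mouse with Cre was left without CNO. Libraries of the activated mice held 14903635, 17489698, 14757501 and 9409491 reads and those of the controls 12421068, 23123740, 9297271 and 14348060.

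Joined by their exact overlaps, the fragments formed 1 sequence of 155 nt for 5.8S rRNA and 1 of 121 nt for 5S rRNA, and positions below are counted from base 1 of these. The ends of these sequences are those of the labelled fragments, and the RNA itself may end elsewhere. Each of the 5366 fragments had 1 exact place on its RNA. The 5.8S fragments were 71.4% of the 3906 stretches of 15 to 45 nt that 155 nt can hold, and the 5S fragments 90.4% of 2852. The RNAs were nearly equal in GC content, at 57.4% for 5.8S and 59.5% for 5S. Few fragments carried many of the reads: the 10 most abundant held 35.0% of the 5.8S reads and 21.1% of the 5S reads.

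The most abundant 5.8S fragments are shown first, because they come from only 2 places on the RNA. Capitals mark bases of the left arm of an inverted repeat, in which bases 114 to 121 are complementary to bases 127 to 134.
5.8S 1-36: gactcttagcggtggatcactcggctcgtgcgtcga
5.8S 82-122: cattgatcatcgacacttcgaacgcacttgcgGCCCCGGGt
5.8S 82-121: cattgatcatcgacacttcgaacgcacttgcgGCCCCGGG
5.8S 82-120: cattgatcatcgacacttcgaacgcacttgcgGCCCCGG
The last 3 begin at base 82 and stop within or 1 base past that arm. The whole repeat, with its loop of bases 122 to 126, is in capitals in the stretch from base 80.
5.8S 80-134: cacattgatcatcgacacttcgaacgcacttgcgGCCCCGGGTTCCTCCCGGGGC
The arms are 8 bases long. The longest such repeat found in 5S rRNA had arms of 4 bases, with loops of 3 to 9 bases allowed in both RNAs.

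Several libraries stood apart before any comparison. Control replicate 3 held the most rRNA, with 37.1% of its reads annotated to rRNA against 15.8% to 26.2% in the others. It had 249983 RPM of 28S rRNA (reads scaled to a library total of 1000000), where the other 7 samples had 107410 to 157971. The share of mitochondrial rRNA split the samples into a poor set (activated replicates 1 and 4, control replicates 2 and 4), at 1.80% to 2.24% of reads, and a rich set (activated 2 and 3, control 1 and 3), at 7.11% to 8.35%. Each set holds 2 mice of each group, so ratios within sets are given for the sums, for the 5' ends and where the sets differ in direction.

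Marker miRNAs showed which cells the RNA could come from. The 12 miRNAs typical of sperm and testis summed to 116197, 99607, 81822 and 131479 RPM in activated samples and to 94078, 108630, 64706 and 95262 in controls, with miR-191 the most abundant. Their group means were 107276 and 90669 RPM, and 12 of 12 had the higher mean in activated mice. Most of these sums was miR-191, with means of 67534 RPM in activated mice and 58633 in controls.

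The 7 epithelial miRNAs, led by miR-200c, summed to 3476, 1166, 1085 and 1196 RPM in activated samples and to 1364, 1825, 2733 and 19420 in controls. Control replicate 4 was far above the other 7 samples. The 4 erythrocyte miRNAs, led by miR-451a, summed to 298, 83.5, 113 and 84.1 RPM in activated samples and to 235, 532, 976 and 659 in controls. All 4 erythrocyte miRNAs had the lower mean in activated mice, also without control replicate 4, and 2 of them were at 0 in some sample. The paper already reports miR-451a, miR-486a and miR-486b as altered in these samples, and all its differing miRNAs as lower. Their direction here is therefore no separate result. All 7 epithelial miRNAs had the lower mean in activated mice too, but this rests on control replicate 4. Without it their sums averaged 1731 RPM in activated mice and 1974 in controls, a ratio of 0.877 in place of 0.273, and 5 of 7 were lower. The erythrocyte and sperm sums overlapped between the groups as well. No list was tested for a difference, and the counts of higher or lower means were not set against those of all miRNAs. The part of the 3 lists in the results on rRNA fragments was not tested. In bulk sperm RNA, fewer cells of a type and less RNA per cell cannot be told apart.

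The first question was whether the amount of 5.8S or 5S fragments differed with AgRP neuron activation. Fragments of 5.8S rRNA summed to 3289, 3725, 3124 and 4293 RPM in activated mice and to 3781, 5083, 6015 and 3544 in controls. Control replicates 2 and 3 were above all activated samples, and the groups overlapped through control replicates 1 and 4. The means were 3607 ± 523 and 4606 ± 1158 RPM (SD, n = 4 per group), a ratio of 0.783, and the difference did not pass (two-sided exact permutation test, p = 0.2, adjusted p = 0.514 over the 16 annotation classes). The smallest p that 4 mice against 4 allow in this test is 0.0286.

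Without control replicate 3 the 5.8S ratio was 0.872 (exact permutation p = 0.371). It was 0.879 in the set poor in mitochondrial rRNA and 0.699 in the rich set, each with 2 mice per group and so without a test.

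Fragments of 5S rRNA summed to 3200, 4131, 3925 and 4220 RPM in activated mice and to 4357, 4621, 4239 and 3750 in controls. Activated replicate 1 was the lowest, and 3 of the 4 controls were above every activated sample. The means were 3869 ± 463 and 4242 ± 365 RPM (SD, n = 4 per group), a ratio of 0.912, and the difference did not pass (exact permutation p = 0.257, adjusted p = 0.514). The ratio was 0.886 in the poor set and 0.937 in the rich set.

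**Figure D1:**
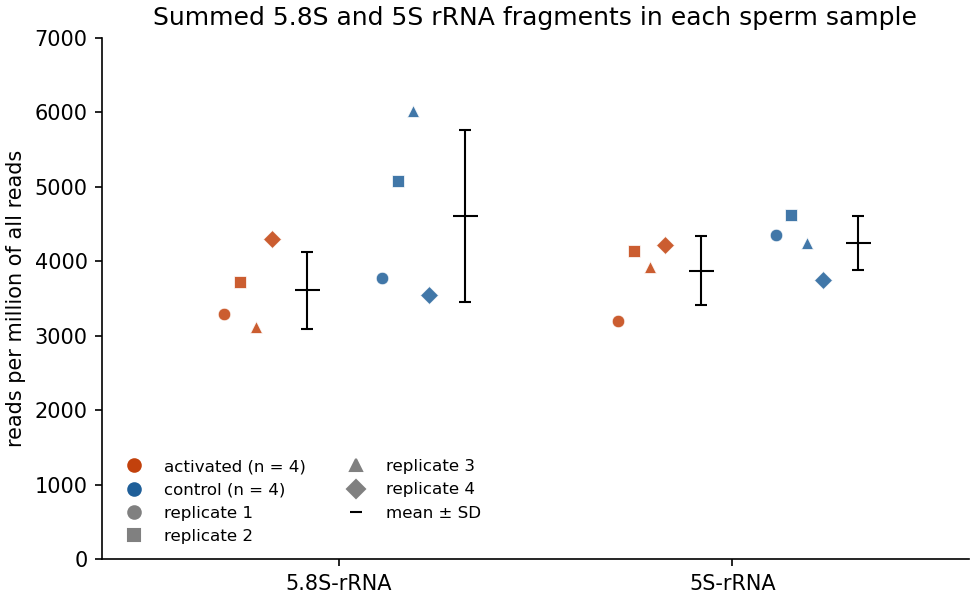
Summed 5.8S and 5S fragments in each sample (vertical axis, RPM), with activated and control mice side by side and the mean and SD of each group. Control replicate 3 has the highest 5.8S sum (6015 RPM), while for 5S its 4239 RPM lies among the other controls.

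Other rRNA classes were compared in the same way, with 28S and 18S rRNA cut from the same precursor as 5.8S. The ratio of activated to control was 0.875 for 28S (exact permutation p = 0.771) and 0.793 for 18S (p = 0.171). Reads labelled with the 45S precursor were at 1304, 1026, 1293 and 1129 RPM in activated mice and 1511, 1681, 4692 and 1414 in controls. Those groups did not overlap, with a ratio of 0.511 and the smallest p the test can give (exact permutation p = 0.0286), but the adjusted p over 16 classes was 0.457. Without control replicate 3 the 45S ratio was 0.774, again with the smallest p possible in that smaller design (exact permutation p = 0.0286). Fragments of 4.5S rRNA had a ratio of 0.923 (exact permutation p = 0.4) and mitochondrial rRNA of 1.05 (p = 0.771).

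Ratios between rRNAs do not depend on library size. Per 1000 reads of 28S rRNA there were 29.3, 26.0, 19.8 and 27.9 reads of 5.8S in activated mice and 28.3, 32.2, 24.1 and 33.0 in controls. The lowest value in each group came from replicate 3, and the groups overlapped. The means were 25.7 ± 4.20 and 29.4 ± 4.11 (SD, n = 4 per group; exact permutation p = 0.286).

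Per 1000 reads of 18S rRNA, 5.8S had 249 ± 21.4 reads in activated mice and 250 ± 13.8 in controls (SD, n = 4 per group; exact permutation p = 1). Of the 3 ratios between rRNAs, this one had the least spread between mice relative to its mean. Reads of 5S per 1000 reads of 5.8S were 973, 1109, 1257 and 983 in activated mice and 1152, 909, 705 and 1058 in controls. Control replicate 3, with its high 5.8S sum, had the lowest ratio, and the group means of 1081 ± 133 and 956 ± 195 did not differ beyond their spread (exact permutation p = 0.343). The ratio of the means was 0.994 in the poor set and 1.27 in the rich set. For 5.8S per 18S reads it was 1.03 in the poor set and 0.963 in the rich set.

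The files state for each fragment whether it matches the genome exactly, and the 2 RNAs differed in this. All 5S reads (100%) matched. Of the 5.8S reads, 98.2% did not match and 1.80% did. Most matching reads were of 15 nt, at means of 57.0 RPM in activated mice and 68.9 in controls. Only 2 matching fragments, with 9 reads, held 18 or more bases of 5.8S. The 5.8S fragments without a genome match had means of 3539 ± 507 RPM in activated mice and 4526 ± 1175 in controls (SD, n = 4 per group), a ratio of 0.782 (exact permutation p = 0.2, unadjusted, 1 of 3 such sums with reads).

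Genome-matching 5.8S fragments were at 79.8, 59.5, 42.1 and 92.9 RPM in activated mice and 56.5, 98.2, 46.1 and 117 in controls. The sums overlapped throughout, with means of 68.6 ± 22.4 and 79.4 ± 33.6 (SD, n = 4 per group), a ratio of 0.863 and exact permutation p = 0.543. Without control replicate 4 this ratio was 1.02.

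Reads were spread unevenly along both RNAs. In 5.8S, the mean coverage of all mice was highest at base 16, at 1598 RPM, but through control replicate 3 alone. That library had 4097 RPM at base 16 and 1221 at base 98, while every other mouse had more at base 98. Fragments that start at bases 1 to 3 held 33.6% of the 5.8S reads and those that start at bases 80 to 83 held 30.6%. This order rests on control replicate 3, at 3663 and 840 RPM. Activated mice had means of 930 and 1347 RPM, and controls without replicate 3 had 1221 and 1270. Starts at bases 46 to 48 held 11.7%. Ends at bases 119 to 123, in and just past the left arm of the inverted repeat, held 32.2%. Starts at bases 124 to 155 held 0.941%, so the last bases of 5.8S were almost absent among fragments with this label.

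In 5S, coverage was highest at base 94 (1864 RPM) and lowest at base 65 (283 RPM). Starts at base 1 held 22.4% of the 5S reads and starts at bases 71 to 84 held 34.9%. Ends at bases 30 to 39 held 26.7%, ends at bases 119 to 121 held 27.1% and ends at bases 114 to 115 held 7.23%. The remaining 5S reads start elsewhere along the RNA.

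**Figure D2:**
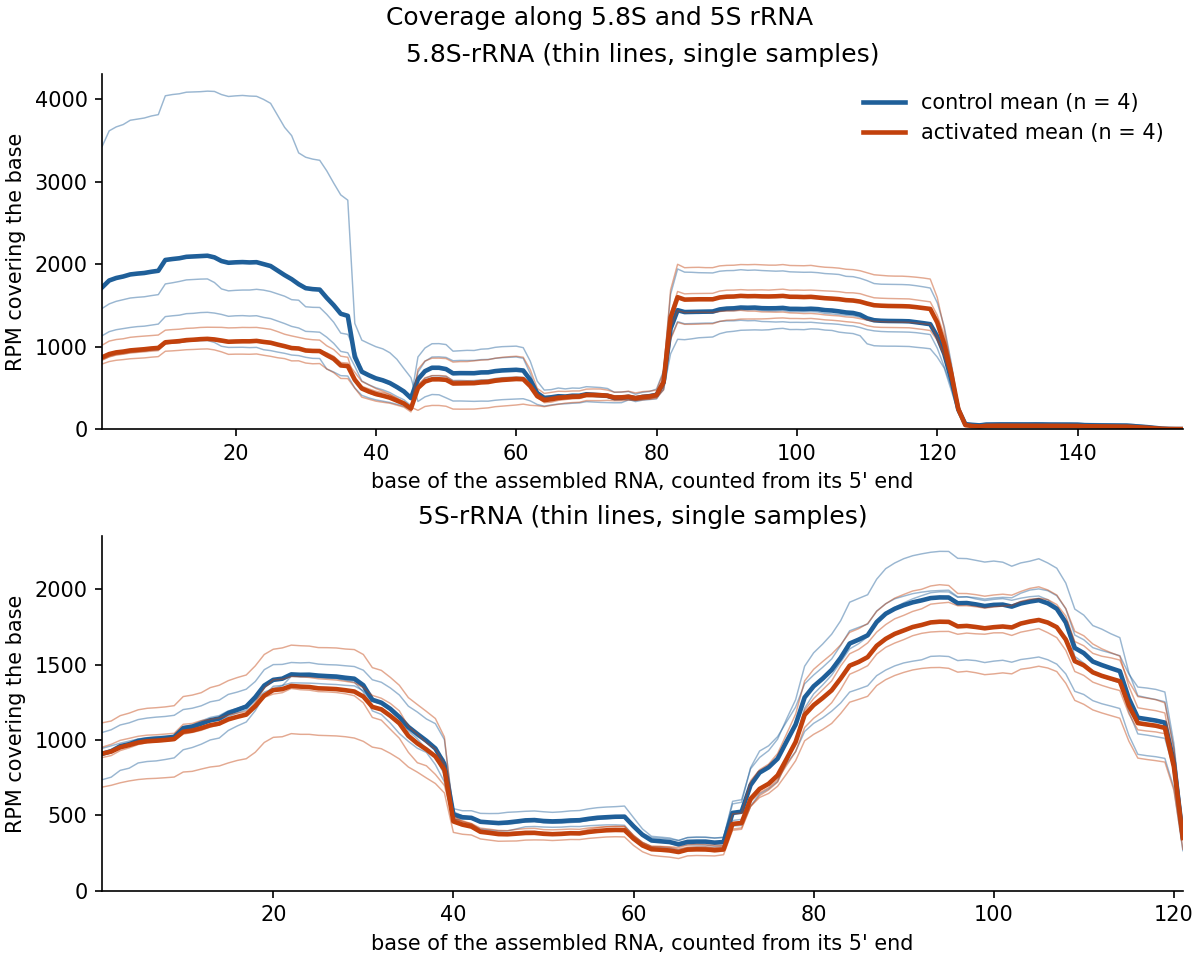
Coverage of each base (vertical axis, RPM) along the assembled 5.8S and 5S rRNA (horizontal axis, base from the 5' end), with thin lines for single mice and thick lines for the means of 4 activated and 4 control mice. Over all 8 mice, mean 5.8S coverage is highest at base 16, through control replicate 3 alone. In every other mouse, 5.8S coverage is higher at base 98 than at base 16. Mean 5S coverage is highest at base 94 and lowest at base 65.

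The next question was whether a difference sits at an end of the RNA. Fragments that begin at base 1 of 5.8S, 31.5% of its reads, were at 789, 842, 1017 and 835 RPM in activated mice and at 1132, 1463, 3427 and 851 in controls. All 4 activated samples lay in a narrow range, control replicate 3 was far above the rest, and the groups overlapped through control replicate 4. The means were 871 ± 101 and 1718 ± 1166 RPM (SD, n = 4 per group), a ratio of 0.507, and the difference did not pass (exact permutation p = 0.0571).

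This 5' end value depends on single libraries. Without control replicate 3 the ratio was 0.758 (exact permutation p = 0.143), and without control replicate 4 it was 0.434, with the smallest p possible in that smaller design (exact permutation p = 0.0286). The ratio was 0.702 in the set poor in mitochondrial rRNA and 0.408 in the rich set, which holds control replicate 3.

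The remaining 5.8S fragments, 68.5% of its reads, were at 2499, 2883, 2106 and 3458 RPM in activated mice and 2649, 3621, 2588 and 2692 in controls. They overlapped, with a ratio of 0.948 (exact permutation p = 0.714). Control replicate 3, so high at the 5' end, was the lowest of the controls here. Without all fragments that start at bases 1 to 3, the 5.8S sums were 2678 ± 576 RPM in activated mice and 2774 ± 521 in controls (SD, n = 4 per group), a ratio of 0.965. At the 3' end only 4 fragments with 13 reads in all reach base 154 or 155. Their ratio of 0.302 did not pass (exact permutation p = 0.171) and rests on too few reads to describe.

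The ends of 5S rRNA behaved otherwise. Fragments that begin at base 1 were at 688, 1114, 952 and 883 RPM in activated mice and 902, 1050, 945 and 737 in controls, with nearly equal means of 909 ± 176 and 908 ± 130 (SD, n = 4 per group; exact permutation p = 0.971). Within sets, the ratio was 0.879 in the poor set and 1.12 in the rich set, so the equal means join opposite directions. Fragments that reach the last base, 8.70% of reads, were at 350 ± 57.4 and 356 ± 64.5 RPM (SD, n = 4 per group; exact permutation p = 1), with ratios of 0.949 in the poor set and 1.01 in the rich set. The difference in the 5S sum lay between the ends, in 68.9% of reads, at 2237, 2662, 2557 and 2984 RPM in activated mice and 3102, 3174, 2887 and 2747 in controls. Here 2 controls were above every activated sample, the ratio was 0.877 and the difference did not pass (exact permutation p = 0.114). Whether the 5' ends of 5.8S and 5S differ from each other in response was not tested.

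The start families of 5.8S were set after their values were seen, so they are given without a test. Starts at bases 1 to 3 were at 834, 903, 1086 and 896 RPM in activated mice and 1205, 1549, 3663 and 909 in controls. All controls were above 3 of the 4 activated samples. Starts at bases 46 to 48 were at 452, 445, 169 and 668 RPM in activated mice and 457, 751, 209 and 705 in controls. Replicate 3 was the lowest in each group there. Starts at bases 80 to 83 were at 1203, 1406, 1083 and 1699 RPM in activated mice and 1151, 1604, 840 and 1055 in controls. In this family, which holds the fragments ending at the inverted repeat, the highest sample was activated replicate 4 and the lowest control replicate 3.

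**Figure D3:**
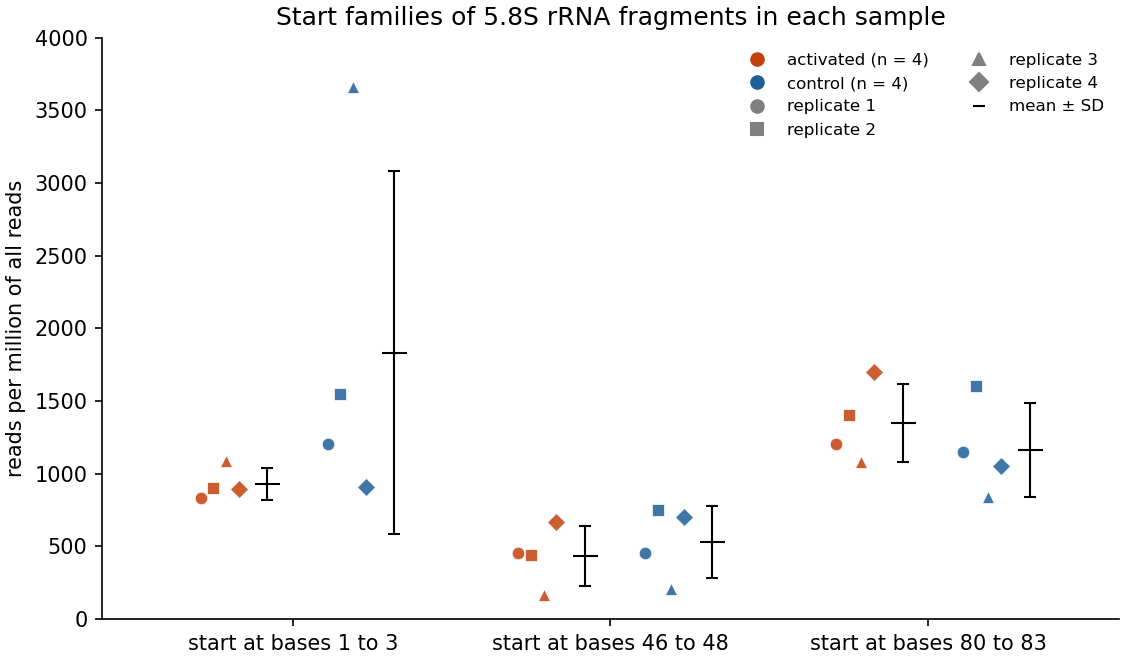
Summed RPM (vertical axis) of 5.8S fragments that start at bases 1 to 3, 46 to 48 and 80 to 83 in each mouse, with a marker for each replicate and the mean and SD of each group. Control replicate 3 is the highest at bases 1 to 3 (3663 RPM) and the lowest at bases 80 to 83 (840 RPM).

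In 5S, starts at bases 71 to 84 were at 1119, 1293, 1441 and 1555 RPM in activated mice and 1547, 1730, 1461 and 1181 in controls. The ranges overlapped widely in this family of starts, which was also set after its values were seen and was not tested.

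Fragment length was examined next. The most abundant lengths of 5.8S were 41 nt (mean 388 RPM), 40 nt (347) and 36 nt (338). Those of 5S were 39 nt (390), 42 nt (223) and 38 nt (185). In 5.8S, the place of 36 nt rests on control replicate 3, at 1362 RPM against 142 to 285 in the other mice. Activated mice had a mean of 189 RPM at 36 nt and 284 at 39 nt. The 5.8S lengths belong to fragments shown above: 5.8S 1-36 has 36 nt and 5.8S 82-122 has 41 nt. The mean was lower in activated mice at 26 of the 31 lengths of 5.8S and at 28 of the 31 lengths of 5S. The 5S count moves with the scaling. In edgeR fits of the combinations of class, length and genome match, 5S had 28 of 31 below 0 by library size and 19 with TMM. The 5.8S count hardly moved, with 27 of 33 below 0 by library size and 26 with TMM. Over all 700 combinations tested, 445 were below 0 by library size and 358 with TMM.

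Grouped by length, 5.8S fragments of 38 to 42 nt, with 34.6% of reads, had a ratio of activated to control of 1.1. Those of 30 to 37 nt, with 25.9% of reads, had 0.584 and those of 25 to 29 nt had 0.574. Without control replicate 3 these became 1.02, 0.811 and 0.758. For 5S the ratio was 0.901 at 30 to 37 nt and 1.01 at 38 to 42 nt. At 43 to 45 nt the ratio of 5.8S was 0.676, and 0.984 without control replicate 3. At 19 to 24 nt the ratio was 0.774 for 5.8S and 0.812 for 5S, and at 25 to 29 nt it was 0.825 for 5S. Activated mice were below all controls in these last groups of lengths, and the mice overlapped in all other length groups. The same length groups of other classes were not compared. Over the 700 single combinations of class, length and genome match, activated mice were below all controls in 29 (4.14%) and above them in 0. These ratios are of RPM, scaled by library total, and the length groups were not tested.

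**Figure D4:**
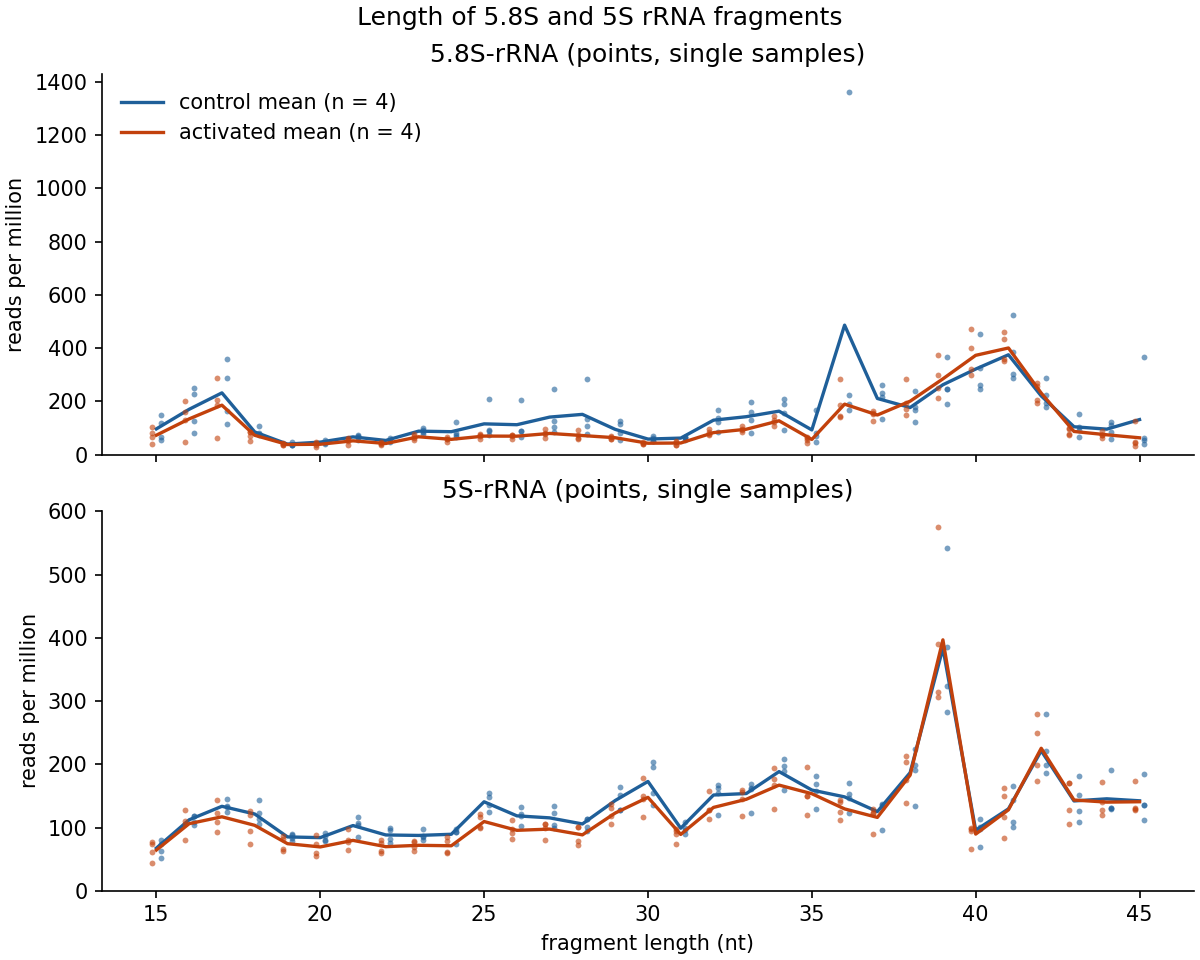
RPM (vertical axis) of 5.8S and 5S fragments at each length (horizontal axis, nt), with a point for each mouse and a line for the mean of 4 activated or 4 control mice. The 5.8S line of the control mice is highest at 36 nt, through control replicate 3 (1362 RPM, other mice 142 to 285). That of the activated mice is highest at 41 nt, and 5S has its peak at 39 nt.

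Each length was then tested with edgeR among all annotation classes, split by genome match. Of the 700 combinations of class, length and genome match, edgeR called 0 at an adjusted p under 0.05 (0%), and DESeq2 called 0 as well. DESeq2 gave no adjusted p for 5.8S of 36 nt and of 45 nt, which were counted as not called. At an unadjusted p under 0.05, edgeR had 22 higher (3.14%) and 37 lower (5.29%) in activated mice. For 5.8S, 33 combinations were tested, with 3 lower (9.09%) and 0 higher. This count depends on the libraries and the fit. It was 8 of 33 without control replicate 1 (24.2%, all 9.33%) and by library size alone (24.2%, all 9.29%), 6 without control replicate 4 (18.2%, all 6.02%) and 10 with DESeq2 (30.3%, all 10%). It was 0 without activated replicate 1 (all 6.15%), 1 with the replicate block (3.03%, all 4.86%) and 2 (6.06%) without activated replicate 2, 3 or 4 or control replicate 3 (all 2.14% to 3.88%). For 5S, 31 were tested, with 0 lower and 0 higher. The groups did not overlap, with activated lower, in 4 of 33 for 5.8S (12.1%) and 2 of 31 for 5S (6.45%), where the share over all 700 was 4.14%.

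Single lengths of 5.8S differed in how far they rest on 1 library. 5.8S fragments of 36 nt were at 145, 142, 285 and 185 RPM in activated mice and 190, 224, 1362 and 168 in controls. The difference rests on control replicate 3: the log2 fold change was -1.14 (SE 0.616, edgeR adjusted p = 0.530) and 0.022 without that library. The lowest unadjusted p was at 28 nt, with 57.6, 73.5, 63.8 and 90.8 RPM in activated mice and 107, 134, 284 and 78.7 in controls. Controls 1, 2 and 3 were above all activated samples, and the log2 fold change was -0.91 (SE 0.316, edgeR unadjusted p = 0.0170, adjusted p = 0.529, DESeq2 adjusted p = 0.146). At 41 nt the log2 fold change was 0.21 (SE 0.195, edgeR adjusted p = 0.715) and at 40 nt 0.32 (SE 0.227, adjusted p = 0.602).

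For 5S the lowest unadjusted p of a lower length was at 25 nt. Its values of 99.6, 117, 100 and 122 RPM in activated mice and 155, 125, 135 and 149 in controls did not overlap, with a log2 fold change of -0.28 (SE 0.197, edgeR adjusted p = 0.602). The abundant 5S lengths had log2 fold changes of 0.16 at 39 nt (edgeR adjusted p = 0.821), 0.14 at 42 nt (adjusted p = 0.814) and 0.10 at 38 nt (adjusted p = 0.854). Scaling decides the sign of such small values: by library size alone the median log2 fold change of all 700 combinations moved to -0.12, and the 38 nt value of 5S to -0.031.

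Single fragments were tested with edgeR among the 12077 sequences that reached 50 counts in 4 or more samples. Of the members, 103 of 5.8S and 208 of 5S passed this minimum, and they held 75.5% and 73.7% of the reads of their RNA. edgeR called 61 fragments higher and 0 lower over all sequences (0.505%), and 0 of 5.8S and 0 of 5S in either direction. DESeq2 with apeglm called 240 (1.99%, with 1.61% higher and 0.373% lower), and 0 of 5.8S and 0 of 5S. It gave no adjusted p for the abundant 5.8S 1-36, which was counted as not called. The lowest adjusted p from edgeR was 0.552 for 5.8S and 0.572 for 5S.

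With a log2 fold change beyond 1 and an unadjusted edgeR p under 0.05, activated mice had less of 11 of 103 fragments of 5.8S (10.7%), of 1 of 208 of 5S (0.481%) and of 403 of all sequences (3.34%). The 5.8S count depends on single libraries. It was 3 of 97 (3.09%, all sequences 2.12%) without control replicate 3, 4 of 87 (4.60%, all 2.14%) without activated replicate 2 and 5 of 102 (4.90%, all 1.87%) without activated replicate 4. It was 16 of 93 (17.2%, all 5.12%) without control replicate 1 and 12 of 92 (13.0%, all 2.42%) without control replicate 4. By library size alone it was 6 of 103 (5.83%, all 2.30%), with the replicate block 5 of 103 (4.85%, all 1.63%) and with DESeq2 and the shrunken fold changes of apeglm 0 of 103 (0%, all 0.571%). At a minimum of 10 counts, activated mice had less of 26 of 523 fragments of 5.8S (4.97%) and 16 of 685 of 5S (2.34%), against 2.94% of all sequences. The 5S count at the main minimum was 0 to 2 when a sample was left out. Activated mice had more of 0 fragments of either RNA and of 353 of all sequences (2.92%). The groups did not overlap, with activated lower, for 3 fragments of 5.8S (2.91%) and 5 of 5S (2.40%), against 1.47% of all sequences. With activated higher they did not overlap for 0 fragments of either RNA, against 2.52% of all sequences. The median log2 fold change was -0.35 for 5.8S, with 75 of 103 below 0, and -0.18 for 5S, with 166 of 208 below 0, while that of all sequences was 0.01. By library size alone the median of all sequences moved to 0.12, that of 5.8S to -0.26 with 70 of 103 below 0, and that of 5S to -0.058 with 128 of 208 below 0. Leaving out each sample in turn gave medians of -0.46 to -0.14 for 5.8S and -0.27 to -0.11 for 5S. The fragments overlap in sequence and are not independent of each other.

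The fold changes of 5.8S differed with the place where a fragment begins. All 39 tested fragments that start at bases 1 to 45 had a log2 fold change below 0, with a median of -0.95, and the 28 among them that start at base 1 had a median of -0.86. Starts at bases 46 to 79 had 28 of 36 below 0 and a median of -0.31. Of the 22 that start at bases 80 to 83, 20 were above 0, with a median of 0.16. The 6 that start at bases 84 to 155, just past them, were all below 0, with a median of -0.18.

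These ranges were set after the values were seen and were not tested. Without control replicate 3, 32 of 35 were below 0 at bases 1 to 45 (median -0.56) and 27 of 36 at bases 46 to 79 (median -0.50), so these ranges were then nearly alike. In that fit 15 of 21 were above 0 at bases 80 to 83 (median 0.042). The median at bases 46 to 79 depends on other libraries too. It was -0.53 without activated replicate 4, and -0.046, with 20 of 34 below 0, without activated replicate 3. Without activated replicate 4, bases 80 to 83 had 11 above and 11 below 0. With a minimum of 10 counts, more fragments were tested and 28 were below and 20 above 0 at bases 80 to 83, so the direction of that family is not settled by these data. At that minimum, starts at bases 1 to 45 had 158 of 188 below 0 and starts at bases 84 to 155 had 74 of 100. By library size alone, starts at bases 84 to 155 had 3 below and 3 above 0.

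**Figure D5:**
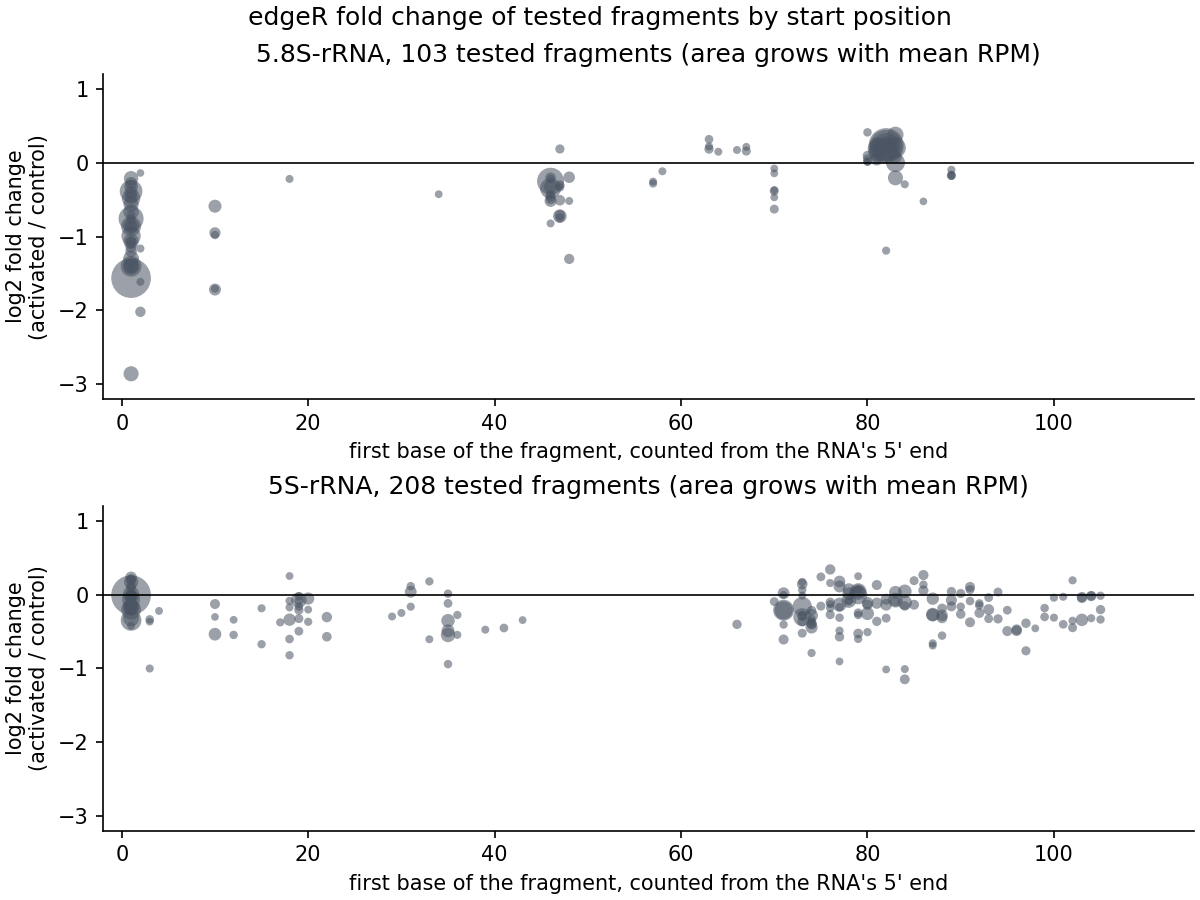
edgeR log2 fold change, activated against control (vertical axis), of each tested fragment by its first base on 5.8S or 5S rRNA (horizontal axis), with point area growing with mean RPM. The 39 5.8S fragments that start at bases 1 to 45 lie below 0, and 20 of 22 that start at bases 80 to 83 lie above it, a count that falls to 11 of 22 without activated replicate 4.

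Starts in 5S rRNA were split only at base 1. Of the 28 tested 5S fragments that start at base 1, 19 were below 0, with a median of -0.07. Of the 180 that start later, 147 were below 0, with a median of -0.21. On the same split, the 5.8S medians lay further apart, at -0.86 for base 1 and -0.20 for later starts. The split was not tested. The sample with the highest RPM was most often control replicate 1 for 5S (59 of 208 fragments) and control replicate 2 for 5.8S (31 of 103), followed in 5.8S by control replicate 3 (26). The lowest sample for 5.8S was most often activated replicate 3 (30 of 103), followed by control replicate 3 (22).

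The 5.8S fragments printed above carry these patterns. 5.8S 1-36, the member of highest mean RPM, was at 109, 101, 249 and 143 RPM in activated mice and 140, 174, 1304 and 128 in controls. The difference rests on control replicate 3: the log2 fold change was -1.56 (SE 0.772, edgeR adjusted p = 0.765) and 0.00 without that library. Its rank rests on control replicate 3 too. Without that library, 5.8S 1-36 had means of 151 RPM in activated mice and 147 in controls, and 5.8S 82-122 had 252 and 228.

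5.8S 82-122 was at 225, 263, 221 and 298 RPM in activated mice and 220, 303, 145 and 162 in controls. Controls 1, 3 and 4 were below every activated sample, control 1 by less than 1 RPM, and control 2 was above them all, with a log2 fold change of 0.23 (SE 0.338, edgeR adjusted p = 0.999). Its shorter forms 82-121 and 82-120, which lack 1 or 2 bases at the 3' end, had log2 fold changes of 0.23 and 0.22. The form 82-120 was at -0.079 without activated replicate 4. Among 5.8S fragments above 0, 5.8S 80-120 had the lowest p, with a mean of 5.60 RPM and a log2 fold change of 0.41 (SE 0.446, edgeR unadjusted p = 0.378).

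The 5.8S fragment with the lowest unadjusted p was a rarer relative of 5.8S 1-36, moved by 1 base.
5.8S 2-37: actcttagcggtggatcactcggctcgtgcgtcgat
It was at 1.95, 3.72, 2.85 and 2.66 RPM in activated mice and 3.62, 8.74, 7.10 and 3.90 in controls. Controls 2 and 3 were well above the rest, and the log2 fold change was -1.16 (SE 0.397, edgeR unadjusted p = 0.0159, adjusted p = 0.552, DESeq2 adjusted p = 0.260).

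Of the abundant 5S fragments, 5S 71-115 was at 72.3, 64.4, 53.2 and 95.3 RPM in activated mice and 85.6, 103, 45.9 and 83.3 in controls, with a log2 fold change of -0.21. Control replicate 3 was the lowest sample, and the groups overlapped. 5S 73-114, from the same family, had a mean of 63.6 RPM and a log2 fold change of -0.16. 5S 76-120, at a mean of 12.2 RPM, had the lowest p above 0, with a log2 fold change of 0.34 (edgeR unadjusted p = 0.394).

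The lowest unadjusted p in 5S belonged to a short fragment that starts at base 82.
5S 82-106: gatgggagaccgcctgggaataccg
It was at 2.28, 3.54, 2.37 and 1.49 RPM in activated mice and 5.07, 4.15, 4.63 and 4.46 in controls. The groups did not overlap, and the log2 fold change was -1.01 (SE 0.355, edgeR unadjusted p = 0.0178, adjusted p = 0.572, DESeq2 adjusted p = 0.246).

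When fragments needed only 1 count in 4 or more samples, edgeR called 2 fragments of 5.8S lower, both chosen after their values were seen. These are 2 of 1815 tested (0.110%), a smaller share than the 1057 of 387985 called lower over all sequences (0.272%). 5.8S 1-28 had 58, 67, 280 and 78 reads in activated mice and 300, 390, 1854 and 136 in controls. Control replicate 3 held most of its reads, and the log2 fold change was -2.75 (edgeR adjusted p = 6.7e-05). At the minimum of 50 counts 5.8S 1-28 was tested too, and it was not called (log2 fold change -2.86, edgeR adjusted p = 0.567), so its call depends on the fit. 5.8S 2-28 had 0, 0, 2 and 0 reads in activated mice and 3, 13, 49 and 1 in controls (edgeR adjusted p = 0.00324). Both end at base 28, and both have control replicate 3 as their highest sample. A test without that library at this minimum was not run.

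Fragments with other labels also held 5.8S sequence. Of all reads that share at least 18 bases with the assembled 5.8S rRNA, 63.8% were labelled 5.8S, 16.7% 45S and 16.9% piRNA. Both of the other kinds differ from the assembled sequence at an end. By total reads, the most abundant 45S-labelled fragment has 1 base, in capitals, before base 1. The most abundant piRNA-labelled fragment by reads covers bases 125 to 155 with the substitution G154C (assembled base first), also in capitals.
45S-labelled, 38 nt: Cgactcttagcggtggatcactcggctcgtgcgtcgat
piRNA-labelled, 31 nt: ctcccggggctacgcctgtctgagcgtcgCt
The extra C stood before base 1 in 87.4% of the 109012 reads of 45S label that share 5.8S sequence, and 95% of the 110867 reads of piRNA label ended with this substitution. The assembled sequence was built from fragments with the 5.8S label alone, and its last 2 bases rest on 13 reads, where 105327 piRNA-labelled reads carry the substitution. Whether its ends are those of the RNA in these mice or only those of the database entry used for labelling was not tested. The values above for the 5' and 3' end of 5.8S are therefore values for the ends of the labelled sequence.

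The 45S-labelled fragments with 5.8S sequence were at 699, 620, 782 and 669 RPM in activated mice and 879, 1114, 2444 and 733 in controls. As for the 5' end of 5.8S, control replicate 3 was far above the rest and control replicate 4 lay in the range of the activated samples, with a ratio of 0.536 (exact permutation p = 0.0571). They made up 51.9% to 66.3% of all 45S-labelled reads in a sample, so the 45S class given above is in large part 5.8S sequence. The 45S-labelled fragments without 5.8S sequence were at 605, 405, 511 and 460 RPM in activated mice and 632, 567, 2248 and 681 in controls. Their ratio was 0.480 (exact permutation p = 0.0571), with control replicate 3 far above the rest here too. The groups overlapped in each of these parts, though not in the whole class. The 38 nt fragment was at 79.4, 93.0, 81.9 and 106 RPM in activated mice and 114, 186, 225 and 60.8 in controls.

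The piRNA-labelled fragments with 5.8S sequence, with most of their reads from its 3' end, were at 675, 838, 663 and 1474 RPM in activated mice and 1106, 1212, 1234 and 644 in controls, a ratio of 0.870 (exact permutation p = 0.571). Activated replicate 4 was the highest and control replicate 4 the lowest. The 31 nt fragment, with 48496 reads the most abundant of these, was at 311, 338, 234 and 781 RPM in activated mice and 483, 572, 427 and 276 in controls. With both kinds added, 5.8S sequence came to 5213 ± 859 RPM in activated mice and 6947 ± 2102 in controls (SD, n = 4 per group), a ratio of 0.750 that did not pass (exact permutation p = 0.2). This wider count was added after the data were examined.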

How the data were processed

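Sperm small RNA of 8 mice was compared, 4 activated against 4 control. The authors made libraries from 100 ng of RNA with the NEXTFLEX kit and read 50 bp single ends. They ran SPORTS1.1 at default settings, kept reads of 15 to 45 bp with duplicates, and matched them with 0 mismatches to mm10 and to miRBase 21, NCBI rRNA, GtRNAdb, piRBase and Ensembl 89. The deposited fragment tables hold counts, that is raw reads for every distinct sequence. The deposited class tables hold expected counts, reads per annotation class, and their totals differed from the fragment sums by 0. Neither is normalized. Library totals ranged from 9297271 to 23123740 reads. As reads carry no molecular identifiers, they are not independent molecules, so the spread between mice was taken as the error and no counting interval is given.

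Counts were scaled to RPM of each library's total. Sums were tested by exact permutation (two-sided, 70 assignments), adjusted (Benjamini-Hochberg) over 16 annotation classes where stated. edgeR 4.0.16 (quasi-likelihood, TMM) in R 4.3.3 was run on fragments and on sums by class, length and genome match that reached 50 counts in 4 or more samples, and p was adjusted over the whole table. DESeq2 1.42.0 with apeglm 1.24.0 was the alternative. Fragment calls need a log2 fold change beyond 1 with adjusted p under 0.05, and calls for sums by length need the p alone. Both edgeR fits, of fragments and of sums by length, were tested on simulated data. The simulation had the same spread for every feature and no library that stood apart. It therefore does not cover differences that rest on a single library. Positions come from exact overlaps of at least 12 bases, found with Python 3.11.15, numpy 2.4.6 and pandas 2.3.3. Figures used matplotlib 3.10.9.

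Named fragments are, for each RNA, the 4 of highest mean RPM, the top one at each of the 3 most abundant lengths, and the tested one with the lowest p in each direction. Named lengths followed the same rule. Of the 8 fragments of 5S that it names, 4 are not given. The members and the 3 lists of marker miRNAs were chosen with earlier results of these data known. Alternatives were other denominators, scalings and count minimums, genome-matching fragments, a replicate block, the mitochondrial rRNA set as covariate, and leaving out each sample. Wider counts of 5.8S sequence, values within the mitochondrial rRNA sets for its 5' end, counts by start position and marker sums without control replicate 4 were added after the data were examined. The 123 sequences annotated differently between samples include 0 members.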

Additional observations from a re-analysis of the deposited data

Results flagged for a closer look

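Among 90 groups of 4 samples examined, 8 had a sample far from the other 3 of its group. Chance gives about 1 in 20 for independent groups. Many of these groups share reads, so the count cannot be set against that rate. In 5.8S rRNA, control replicate 3 had 1304 RPM of fragment 1-36 (other controls 128 to 174) and 1362 RPM of all 36 nt fragments (168 to 224). Control replicate 2 had 3621 RPM of 5.8S fragments that lie between the ends (2588 to 2692). Activated replicate 2 had 217 reads of 5.8S per 1000 reads of 18S rRNA (other activated samples 257 to 263). In 5S rRNA, control replicate 2 had 17.1 RPM of fragment 76-120 (other controls 8.17 to 8.43).

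Among marker miRNAs, epithelial sums were 19420 RPM in control replicate 4 (other controls 1364 to 2733) and 3476 RPM in activated replicate 1 (other activated samples 1085 to 1196). Erythrocyte sums were 298 RPM in activated replicate 1 (83.5 to 113 in the others of its group). Their part in the 5.8S and 5S values was not tested.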

How the results depend on the processing

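The 5.8S and 5S sums kept their direction and did not pass in the 31 alternatives with a test, with ratios of 0.727 to 0.875 (exact permutation p = 0.114 to 0.543) for 5.8S and 0.836 to 0.965 (p = 0.114 to 0.886) for 5S. Within the mitochondrial rRNA sets, without a test, ratios were 0.699 and 0.879 for 5.8S and 0.886 and 0.937 for 5S. Replicate numbers did not pair the samples, and with them as a block the exact sign-flip p was 0.375 for each. For sums by genome match, position and ratio, 83 of 100 alternatives with a test kept direction and side, and the cause of the others was not tested. With reads annotated to any rRNA as denominator, 5.8S between the ends had a ratio of 1.0 and the 5S 3' end 1.06. With genome-matching fragments only, 5.8S over 18S had 1.02. Leaving out each sample in turn gave 0.757 to 1.02 for genome-matching 5.8S, 0.434 to 0.758 for the 5.8S 5' end, 0.865 to 1.04 between its ends, 0.926 to 1.08 for the 5S 5' end, 0.907 to 1.05 for the 5S 3' end and 0.977 to 1.04 for 5.8S over 18S.

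The 61 fragments called over all sequences became 0 by library size, 202 with 10 counts, 2800 with 1 count, 0 with the replicate block, 107 with the mitochondrial rRNA covariate, 240 with DESeq2 and 0 to 58 without a sample. Calls of 5.8S fragments became 2 with 1 count, and the cause was not tested. Of 254 values of named fragments and lengths, 248 kept their sign. By library size, 5S of 38 nt was at -0.031 (log2 fold change). Leaving out each sample gave -1.85 to 0.0024 for 5.8S 1-36, -0.079 to 0.41 for 5.8S 82-120, -1.49 to 0.022 for 5.8S of 36 nt, -0.39 to 0.0085 for 5S 73-114 and -0.057 to 0.32 for 5S of 39 nt. Depth limits single fragments: 103 of 2789 for 5.8S and 208 of 2577 for 5S reached the count minimum.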

Other observations

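Sequences without annotation also shared at least 18 bases with these RNAs. For 5.8S there were 4877 such fragments with 16705 reads, 2.55% of all reads sharing its sequence, at 93.5, 128, 142 and 133 RPM in activated mice and 127, 165, 251 and 139 in controls. For 5S, the 3794 that do not match the genome had 10019 reads, 2.21% of reads sharing its sequence, while fragments labelled 5S held 96.4%.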
